A study of Mus musculus with 156 samples.

Results

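Tranylcypromine and bupropion are antidepressants that both raise monoamine signalling, but by different routes, and here the striatal transcriptomes of mice given one or the other were set directly against each other. Tranylcypromine blocks monoamine oxidase, the enzyme that breaks down dopamine, noradrenaline and serotonin, so all 3 amines accumulate. Bupropion blocks the reuptake of dopamine and noradrenaline and has little action on serotonin uptake. In the striatum dopamine and glutamate inputs act on projection neurons, where receptor activation reaches the nucleus through cyclic AMP, calcium and MAP kinase pathways and switches on immediate early genes such as Fos, whose protein products are transcription factors. Circulating glucocorticoids act on the same tissue through their own nuclear receptor and switch on a separate set of genes.

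The study profiled the mouse striatum after single injections of psychotropic drugs on Illumina MouseWG-6 bead arrays. The series used here holds 156 of the study's arrays. The present comparison takes the 12 tranylcypromine arrays and the 12 bupropion arrays, chosen by drug label alone, with no measured value in the choice. All animals were C57BL/6J males, aged 8 to 10 weeks by the study's methods (the labels give 6 to 10 weeks). Each received 1 intraperitoneal dose of 20 mg/kg of either drug and was killed 1, 2, 4 or 8 h later. Both drugs were dissolved in saline, so the saline-injected mice were the vehicle group of both. Each drug and time had 3 arrays, and each array held the pooled RNA of 2 mice, so a replicate is a separate pool of animals and single mice were not measured. The tissue was the rostral caudate putamen together with the nucleus accumbens. The differences below are tranylcypromine minus bupropion in log2 signal after quantile normalization of all arrays, at each time (3 arrays against 3) and as the mean of the 4 times (12 against 12). They were tested with limma's moderated test, and a gene was called where its p, adjusted over all 45279 probes tested by the Benjamini-Hochberg method, was under 0.05. Every one of 19157 genes was read from 1 probe, the brightest of those that carried its symbol.

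All 10 measured markers of striatal projection neurons lay above the median probe level, and the log2 of their summed signal ran from 16.61 to 17.12 over the tranylcypromine arrays and from 16.74 to 17.08 over the bupropion arrays, with none of the 10 called between the drugs on the mean of the times and 1, Pdyn, at 8 h. Arrays of 1 group correlated with each other at 0.982 to 0.993. A single array stood apart: in tranylcypromine 8 h replicate 2 the heat shock gene Hspa1a reached 14.77 against 9.01 and 9.55 in the other two, and named 8 h calls that were lost without it are given both ways. All 12 bupropion arrays sat at the first position of their chips and all 12 tranylcypromine arrays at the fifth or sixth, so within these 24 arrays drug and chip position cannot be told apart. Chips were also shared unevenly, since 10 tranylcypromine and 5 bupropion arrays lay on the higher-numbered chips.

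Over the 4 times together, 359 genes were higher after tranylcypromine than after bupropion (1.87% of the genes tested) and 153 were lower (0.799%). With the chip as a block these counts at probe level moved from 532 higher and 276 lower to 366 and 93, and 224 of the 359 and 39 of the 153 genes were still called. With position added to the model, estimated from the groups whose arrays lay at more than 1 position, 118 and 48 of the same genes were still called, and with chip and position together 1 was, Areg, while the median standard error rose from 0.0579 to 0.189. Scaling each array to a common median in place of quantile normalization gave 33.0% of called probes as higher, against 65.8% in the main analysis, and kept 146 of the higher and 149 of the lower genes. With that scaling 618 of the 19157 genes were called higher and 2075 lower. The 4 pairs of arrays that shared a chip and a time gave a mean difference of the same sign for all 359 and all 153 genes. The sign held in all 4 pairs for 166 and 68 of them. Over all 19157 genes the mean of the pairs was positive for 10129, and all 4 pairs were positive for 1382. These pairs are among the same 24 arrays by which the genes were called and are not independent of the main result. Within each pair the drugs still lay at different chip positions.

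More genes were called at 4 h and 8 h than at 1 h and 2 h. At 1 h, 11 genes were higher (0.0574% of genes) and 0 lower (0%), with 2414 probes at an unadjusted p under 0.05. At 2 h, 17 genes were higher (0.0887%) and 0 lower (0%), with 3263 probes under 0.05 unadjusted. At 4 h the count rose to 119 higher (0.621%) and 6 lower (0.0313%), and at 8 h to 183 higher (0.955%) and 52 lower (0.271%). Without tranylcypromine 8 h replicate 2 the 8 h counts were 61 and 10, of which 56 and 9 were genes called with it. The 4 h counts in the same setting were 123 and 6, with 1 tranylcypromine array more than at 8 h, so the times are not on equal footing. In probes, 8 h gave 100 without that array, and leaving out 1 array of 4 h gave 83 to 133 at 4 h. Of the 359 genes higher on the mean, 26 had their largest difference at 1 h, 52 at 2 h, 133 at 4 h and 148 at 8 h. In the same direction at all 4 times were 301, a count favoured by choosing the genes on the mean of these 4 differences. Only 8 of the 359 differed by more than 1 log2 unit, and the median was 0.329. The 153 lower genes were shallower, with a median size of 0.276 and 5 beyond 0.5. A difference that itself changed with time was called for 60 genes (0.313%).

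**Figure D1:**
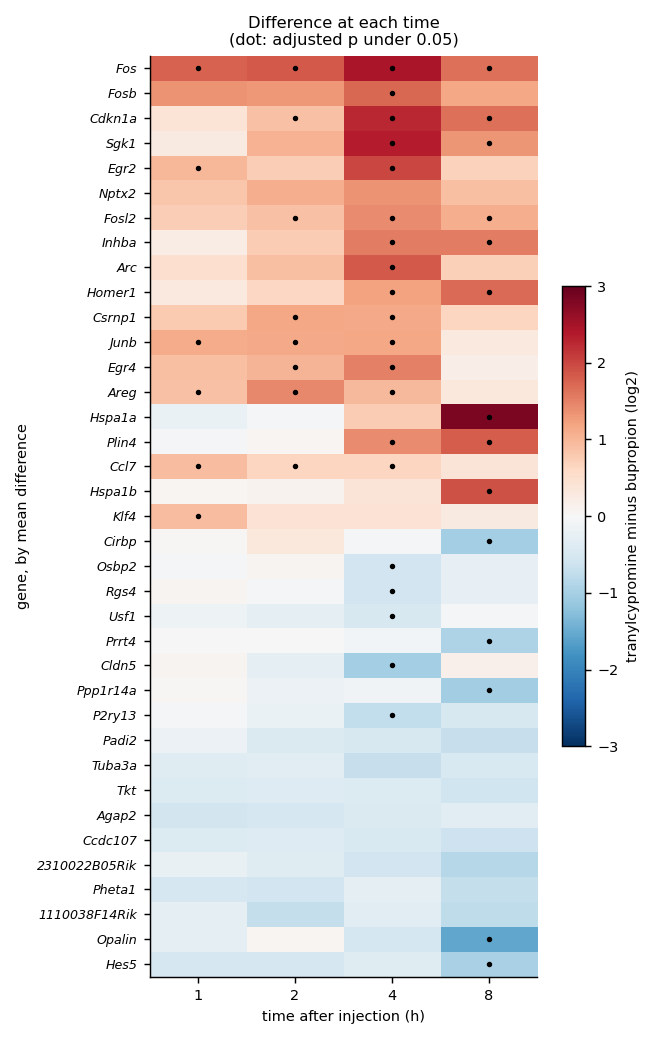
Tranylcypromine minus bupropion (log2) for the 37 named genes, 1 line a gene, at 1, 2, 4 and 8 h; a dot marks an adjusted p under 0.05. Fos, Junb, Egr2, Areg, Klf4 and Ccl7 carry a dot at 1 h, while Hspa1a, Plin4, Homer1, Opalin and Cirbp have their largest differences at 8 h.

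Fos, the founding member of the AP-1 family of early transcription factors, had the largest mean difference among the called genes. At 1 h its log2 signal was 12.29, 13.15 and 13.33 on the tranylcypromine arrays and 10.88, 11.42 and 11.18 on the bupropion arrays. Every tranylcypromine array was above every bupropion array, and this held at each of the 4 times. At 4 h the values were 12.12, 11.86 and 11.57 against 9.57, 9.37 and 9.29, the widest gap of the 4 times, and even at 8 h they were 10.60, 12.85 and 10.46 against 9.53, 9.97 and 9.47. The differences were 1.76, 1.84, 2.44 and 1.65 at 1, 2, 4 and 8 h (adjusted p = 0.02, 0.0077, 3.1e-06 and 0.0056), and their mean of 1.92 ± 0.18 (SE, 12 arrays a drug) corresponds to a 3.79-fold difference. Without tranylcypromine 8 h replicate 2, which was the highest of its group, the Fos mean was 1.73, and the Fos difference at 8 h was 0.88 and no longer called (adjusted p = 0.57). Against saline, whose 12 arrays both contrasts share, Fos stood at 1.99 after tranylcypromine (adjusted p = 1.2e-14) and 0.07 after bupropion (adjusted p = 0.96).

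Areg encodes amphiregulin, a secreted ligand of the EGF receptor, and it had the smallest adjusted p of the named genes on the mean of the times. At 2 h its signal was 9.67, 9.41 and 9.67 after tranylcypromine and 8.06, 8.18 and 8.18 after bupropion, where saline gave 8.17, 8.02 and 7.98. The bupropion arrays were thus at the level of saline, not far above the median probe level of 8.07, and all tranylcypromine arrays were above both. At 8 h the groups overlapped, with 7.92, 8.77 and 8.03 against 8.04, 7.89 and 7.87. The difference was 0.88 at 1 h, 1.44 at 2 h, 0.97 at 4 h and 0.30 at 8 h (adjusted p = 1.4e-06, 3.4e-16, 5.7e-09 and 0.28), and it changed with time (adjusted p = 0.00045). The probe of Areg carried no symbol in the deposited annotation and was named through the study's own list of drug-responsive probes. Of the other 11 measured genes of the EGF family list, Errfi1, an inhibitor of the EGF receptor (0.68), and Hbegf, another ligand (0.48), were also called higher and none lower. The list's median was 0.09, against 0.004 over all genes.

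The promoters of 4 of the leading higher genes are printed because the genes moved early or strongly and each window holds one of the motifs searched. Each runs from 250 bases before to 50 bases after the annotated start, on the strand of the gene, in the RefSeq annotation of GRCm38.p6. Capitals mark the motif: the cyclic AMP response element TGACGTCA in Areg (chr5:91139349-91139648, plus strand), its shorter core TGACG in Fos (chr12:85473640-85473939, plus strand), a CArG box, the serum response factor motif, in Egr2 (chr10:67537316-67537615, plus strand), and the glucocorticoid response element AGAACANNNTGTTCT in Sgk1 (chr10:21993640-21993939, plus strand).
Areg: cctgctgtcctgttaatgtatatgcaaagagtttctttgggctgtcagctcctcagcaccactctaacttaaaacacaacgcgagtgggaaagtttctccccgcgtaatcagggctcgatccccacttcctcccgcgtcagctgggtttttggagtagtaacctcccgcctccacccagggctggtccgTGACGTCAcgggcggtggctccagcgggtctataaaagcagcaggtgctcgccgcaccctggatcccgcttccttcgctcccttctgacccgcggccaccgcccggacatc
Fos: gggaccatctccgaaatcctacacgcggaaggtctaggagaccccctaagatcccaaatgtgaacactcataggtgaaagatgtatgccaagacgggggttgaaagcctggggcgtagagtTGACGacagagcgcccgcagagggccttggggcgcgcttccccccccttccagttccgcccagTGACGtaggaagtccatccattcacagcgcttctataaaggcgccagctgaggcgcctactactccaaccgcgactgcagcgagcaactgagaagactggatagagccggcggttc
Egr2: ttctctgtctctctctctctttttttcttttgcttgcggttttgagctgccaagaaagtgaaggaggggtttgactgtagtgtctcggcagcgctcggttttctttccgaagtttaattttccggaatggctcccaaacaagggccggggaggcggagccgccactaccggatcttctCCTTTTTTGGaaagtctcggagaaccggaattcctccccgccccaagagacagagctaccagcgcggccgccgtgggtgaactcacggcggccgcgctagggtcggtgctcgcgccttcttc
Sgk1: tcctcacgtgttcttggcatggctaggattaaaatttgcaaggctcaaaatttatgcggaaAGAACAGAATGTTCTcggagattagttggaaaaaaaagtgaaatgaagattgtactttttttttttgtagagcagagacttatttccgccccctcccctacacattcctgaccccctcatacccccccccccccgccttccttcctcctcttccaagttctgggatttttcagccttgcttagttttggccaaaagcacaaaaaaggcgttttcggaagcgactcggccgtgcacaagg
The Areg element began 61 bases before the start, the Fos cores 129 and 66 bases before, the Egr2 box 72 bases before and the Sgk1 element 189 bases before. Egr2 has 5 annotated starts, 4 of whose windows hold the box, and Sgk1 has 6, of which 1 holds the element. Both strands were searched, and every TGACGTCA also counts as a TGACG. Among all 32851 mouse promoter windows of this length, TGACGTCA occurred in 1.79%, TGACG in 20.8%, the CArG box in 1.63% and the glucocorticoid element in 0.00913%, which is 3 windows. Of the 281 higher genes with a window in the table, 19 (6.76%) held TGACGTCA and 116 (41.3%) held TGACG, against 2.71% and 28.0% of the 15288 measured genes with a window. Of 129 lower genes with a window, 3 (2.33%) and 35 (27.1%) did. A match shows only that the letters are there.

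The early transcription factors differed in 1 direction wherever they were called. Of 6 measured Fos and Jun genes 4 were called higher on the mean and none lower (median 0.98): Fos, Fosb (1.38, with 1.71 at 4 h), Fosl2 (1.03) and Junb (0.92, with 1.12 at 1 h and 0.29 at 8 h). Fosb and Fosl2 arrays of the 2 drugs did not overlap at any of the 4 times. Of 6 Egr and Nab genes, zinc finger activators and their corepressors, 4 were called, namely Egr2, Egr4 (0.91), Egr3 (0.69) and Egr1 (0.32), with a median of 0.51. A further list of 19 early transcription factors gave 10 higher and none lower, with a median of 0.23, but 3 higher with position in the model. Among them Csrnp1 was 0.93 higher, Atf3 0.60, Klf2 0.60, Klf4 0.51 and Npas4, a factor specific to activated neurons, 0.48. Klf4 was among the genes of the first hour, with 9.45, 9.71 and 9.62 after tranylcypromine and 8.70, 8.44 and 8.89 after bupropion at 1 h, and its 8 h difference of 0.26 was not called (adjusted p = 0.52). Klf2 instead peaked at 4 h, at 1.29, and stood at 0.08 at 8 h.

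Egr2 differed most at 4 h. At 1 h it stood at 12.79, 12.37 and 12.49 after tranylcypromine and 11.59, 11.23 and 11.85 after bupropion, with saline lower still at 10.46, 10.74 and 10.95. At 4 h the bupropion arrays had fallen to 8.98, 9.02 and 9.08, close to saline at 9.35, 9.21 and 9.10. The tranylcypromine arrays, also lower than at 1 h, stood at 10.92, 10.86 and 11.29. The difference was 0.99 at 1 h, 0.745 and not called at 2 h, and 1.99 at 4 h (adjusted p = 0.01, 0.22 and 3.5e-12). It was 0.70 at 8 h (adjusted p = 0.061) and changed with time (adjusted p = 0.019).

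Ccl7, a chemokine that attracts monocytes, was the other early riser among the named genes. Its 1 h values were 8.88, 9.36 and 8.56 after tranylcypromine and 7.93, 8.02 and 8.07 after bupropion, a difference of 0.93 (adjusted p = 2e-06). The bupropion values lay around the median probe level, and the arrays of the 2 drugs did not overlap at any time.

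**Figure D2:**
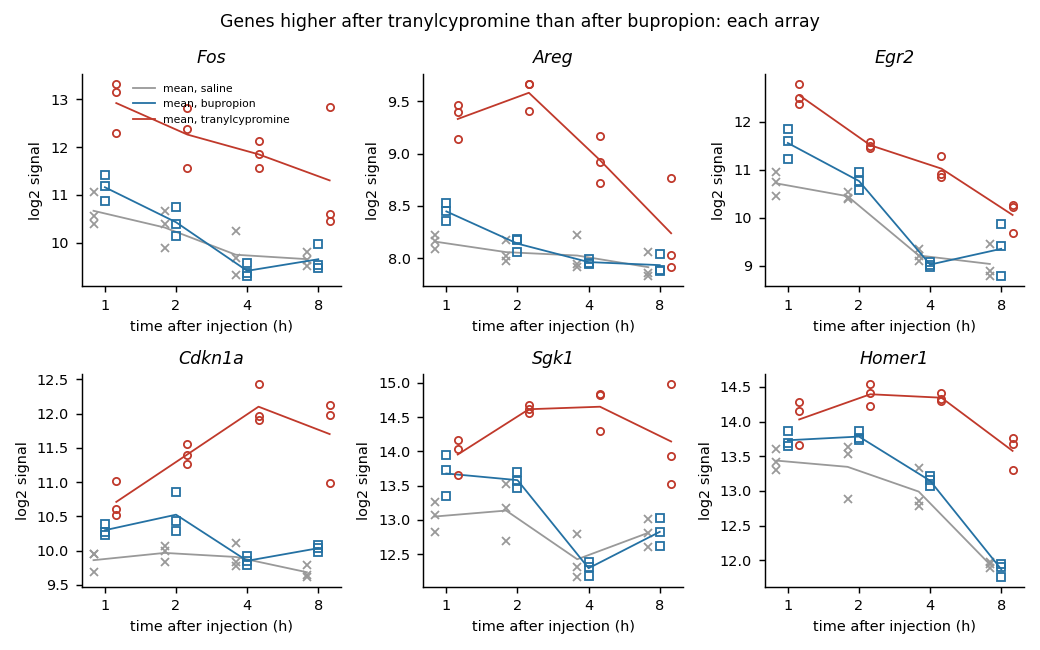
Log2 signal of Fos, Areg, Egr2, Cdkn1a, Sgk1 and Homer1 on every array at each of the 4 times (red circles tranylcypromine, blue squares bupropion, grey crosses saline, lines the means of 3 arrays). Areg separates most at 2 h, Sgk1 and Cdkn1a at 4 h and Homer1 at 8 h, and the bupropion mean lies below the tranylcypromine mean at every time in all 6 genes. In Egr2 at 1 h the bupropion mean of 11.56 lies above the saline mean of 10.72.

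Of 24 synaptic and secreted genes induced by neuronal activity, 14 were called higher and none lower, with a median of 0.39, and 9 were called with position in the model and 10 with median scaling. Homer1, a postsynaptic scaffold gene whose short activity-induced form competes with the long forms, had its largest difference at 8 h, but its change with time was not called (adjusted p = 0.11). Its differences were 0.30, 0.61, 1.20 and 1.71 at 1, 2, 4 and 8 h, and at 8 h the arrays read 13.30, 13.67 and 13.76 against 11.76, 11.95 and 11.90 (adjusted p = 6.1e-07). This came from 1 of the gene's 5 probes, the brightest, and the other 4 were not called. Like that of Areg, the called probe had no symbol in the deposited annotation and was named through the study's list. Arc, a cytoskeletal regulator of AMPA receptor uptake, peaked at 4 h with 11.79, 12.06 and 12.29 against 10.21, 10.33 and 10.09, a difference of 1.84 (adjusted p = 3.2e-06). Inhba, the activin A subunit, differed by 1.53 at both 4 h and 8 h, and its 4 h values were 11.06, 11.55 and 11.81 against 9.89, 10.11 and 9.83. Nptx2, a secreted organizer of excitatory synapses, had a mean difference of 1.04 (adjusted p = 0.0034) with overlap at 3 of the 4 times, since tranylcypromine replicate 1 was the lowest of its group at every time.

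The phosphatases and brakes of MAP kinase signalling were split. Of 16 phosphatase genes 5 were called higher and none lower, with a list median of 0.07, and 3 were called with median scaling. The 5 were Dusp1 (0.80), Dusp5 (0.64), Dusp6 (0.56), Dusp4 (0.56) and Dusp14 (0.55). Dusp5 was called at 1, 2 and 4 h, whereas Dusp14 was called at 8 h alone among the single times and had a mean difference of -0.16, not called, with position in the model. In the list for CREB and its coactivators 2 of 12 genes were called. They were Crem (0.68), which gives rise to a cyclic AMP-inducible repressor, and Pde4d (0.23), a cyclic AMP phosphodiesterase. The call of Pde4d was lost without bupropion 8 h replicate 1 or tranylcypromine 4 h replicate 2 (0.20 each). It was also lost without tranylcypromine 8 h replicate 2 (0.24, adjusted p = 0.07). Crem read 10.11, 9.76 and 10.05 against 8.99, 9.07 and 9.29 at 4 h.

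Glucocorticoid and stress-responsive genes were called mostly at 4 h and 8 h, when more of all genes were called too, while Fos was already called at 1 h. Of 23 such genes 14 were called higher on the mean and none lower (median 0.36), and by time 0 were called at 1 h, 3 at 2 h, 14 at 4 h and 9 at 8 h. Over all 19157 genes 11 were called at 1 h, 17 at 2 h, 125 at 4 h and 235 at 8 h. With position in the model 5 were called on the mean and 8 at 4 h, and with median scaling 9 on the mean, where the list's median was 0.18, and 5 at 4 h. Sgk1, a kinase gene induced by glucocorticoids that acts on ion channels, already read 13.66, 14.04 and 14.16 against 13.73, 13.35 and 13.95 at 1 h, and there the groups overlapped. At 4 h it read 14.84, 14.82 and 14.29 after tranylcypromine and 12.19, 12.31 and 12.39 after bupropion, a difference of 2.35 (adjusted p = 9.2e-09). The tranylcypromine level had risen since 1 h and the bupropion level had fallen to that of saline, which was 12.80, 12.31 and 12.17. Its difference was 0.28 at 1 h and 1.32 at 8 h and changed with time (adjusted p = 0.026). The Sgk1 difference at 8 h was 0.90 and not called without tranylcypromine 8 h replicate 2 (adjusted p = 0.36).

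Cdkn1a, which encodes the cell cycle inhibitor p21, had the smallest adjusted p of all named genes at 4 h. There the tranylcypromine arrays gave 11.90, 12.43 and 11.97 and the bupropion arrays 9.78, 9.92 and 9.85, with saline at 10.11, 9.83 and 9.78. The difference grew from 0.41 at 1 h to 0.88 at 2 h and 2.25 at 4 h, and was 1.66 at 8 h (adjusted p = 0.91, 0.013, 2.5e-16 and 7.6e-10). The groups did not overlap at any time, all 3 probes of the gene were called on the mean, and the difference changed with time (adjusted p = 1.8e-05).

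Further targets of the glucocorticoid receptor were taken up after their values were seen. Fkbp5, a chaperone that restrains the receptor, differed by -0.06 at 1 h and -0.08 at 2 h and then by 0.79 at 4 h and 0.73 at 8 h. Tsc22d3, also known as GILZ, gave 13.77, 14.07 and 14.07 against 12.89, 13.12 and 13.24 at 4 h, and its 4 differences were 0.04, -0.03, 0.88 and 0.76. Sult1a1, a sulfotransferase gene, followed the same course, with 0.06, 0.10, 1.19 and 0.84, as did Pdk4, a kinase that holds back glucose oxidation, with 0.11, -0.09, 0.84 and 0.70. All 4 were called at 4 h and at 8 h and at neither earlier time. The 8 h call of Pdk4 was lost without tranylcypromine 8 h replicate 2 (0.44, adjusted p = 0.49), and those of the other 3 were kept. The mean of Tsc22d3 was -0.0239, not called, with chip and position in the model. Gadd45g (0.79) and Nfkbia, the inhibitor of NF-kappa-B (0.68), were called at 4 h as well. Per1, a clock gene with both cyclic AMP and glucocorticoid inputs, was 0.87 higher at 4 h and 0.03 at 8 h.

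Plin4, which coats lipid droplets and is known from fat tissue as a hormone-responsive gene, differed at the 2 late times only. At 1 h and 2 h its differences were -0.05 and 0.06. At 4 h it read 11.35, 11.04 and 11.12 against 9.37, 10.16 and 9.71, and at 8 h 11.76, 10.76 and 10.95 against 9.57, 9.13 and 9.31. The groups did not overlap at either late time, with differences of 1.43 and 1.82 (adjusted p = 0.0045 and 6.1e-05), and without tranylcypromine 8 h replicate 2 the Plin4 difference at 8 h was 2.02.

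Heat shock genes were called higher at 8 h, and here 1 array carried much of the result. Of 18 heat shock and chaperone genes 8 were called higher at 8 h and 6 on the mean, and without tranylcypromine 8 h replicate 2 these were 3 and 3. With position in the model they were 5 and 1, and with median scaling 3 and 2. Hspa1a, the inducible HSP70, read 9.01, 14.77 and 9.55 against 8.57, 8.26 and 8.01. Its 3 tranylcypromine arrays were all above the bupropion arrays, but 1 of them by far more than the others. The 8 h difference of 2.83 (adjusted p = 3.6e-05) and the mean of 0.84 (adjusted p = 0.03) included that array, and without it Hspa1a differed by 1.00 at 8 h (adjusted p = 0.045) and by 0.38 on the mean (adjusted p = 0.077). Its close copy Hspa1b read 8.66, 12.45 and 8.48 against 7.95, 8.15 and 7.77, and its 8 h difference was 1.91 with that array and 0.61 without it (adjusted p = 0.51). The 2 genes are near copies, so signal of one may be read by the probe of the other. Bag3, an HSP70 cofactor, had a mean difference of 0.54 with that array and 0.43 without it, and Dnajb1, an HSP40, had 0.44 and 0.36. Both were called on the mean either way, and neither was called at 8 h without that array (0.48 and 0.57, adjusted p = 0.34 and 0.12).

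**Figure D3:**
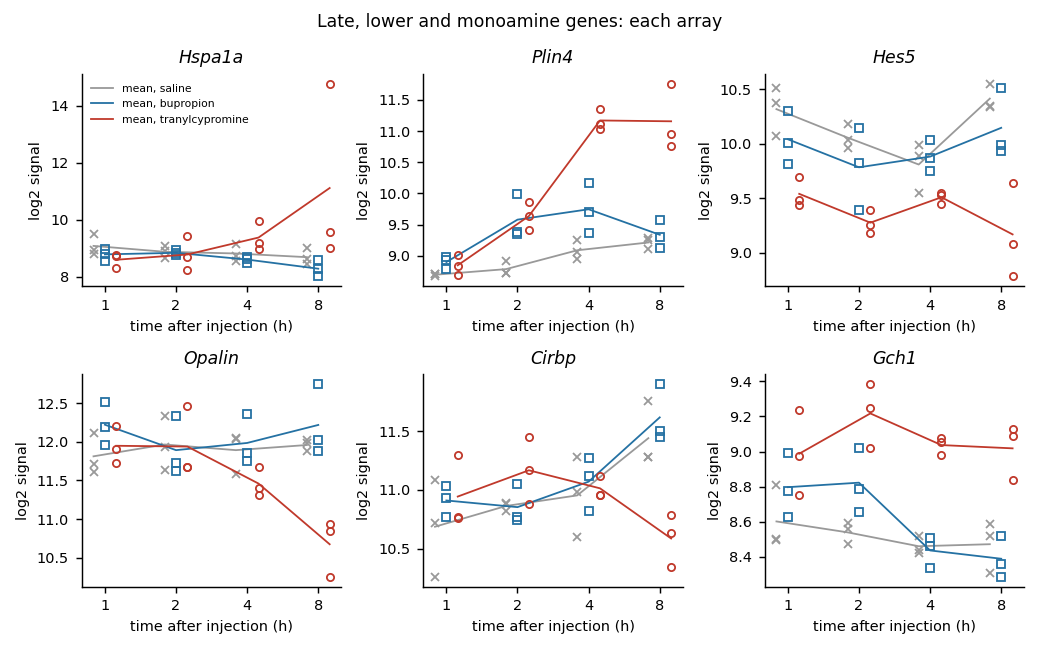
Log2 signal of Hspa1a, Plin4, Hes5, Opalin, Cirbp and Gch1 on every array at 1, 2, 4 and 8 h (red circles tranylcypromine, blue squares bupropion, grey crosses saline, lines the means of 3 arrays). In Hspa1a 1 tranylcypromine array at 8 h reads 14.77, while Plin4 and Gch1 separate by drug at 4 h and 8 h and Opalin and Cirbp are lower after tranylcypromine at 8 h.

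The genes of monoamine handling, the direct targets of both drugs included, mostly did not pass the test, as most of all genes did not. Of 15 measured genes for monoamine synthesis, breakdown and transport 1 was called on the mean, with a list median of 0.07. Over all genes 1.87% were called higher on the mean and 0.799% lower, so a list this short could hold few calls. The called gene was Gch1, which encodes GTP cyclohydrolase, the first enzyme in making tetrahydrobiopterin, the cofactor that tyrosine and tryptophan hydroxylases need. Gch1 read 9.05, 9.08 and 8.98 against 8.33, 8.46 and 8.51 at 4 h and 9.09, 9.13 and 8.84 against 8.36, 8.52 and 8.28 at 8 h. The groups were apart at both late times, with differences of 0.60 and 0.63 (adjusted p = 0.00058 and 2e-04), a mean of 0.45 ± 0.06 (SE) and, against the shared saline arrays, 0.55 after tranylcypromine and 0.09 after bupropion. Maoa and Maob, whose products tranylcypromine inhibits, had mean differences of -0.03 and 0.15. Slc6a3, the dopamine transporter that bupropion blocks, differed by 0.29 ± 0.21 (SE, adjusted p = 0.51), and its transcript is made chiefly in midbrain neurons that project to the striatum.

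Few receptor genes passed the test, as few did among all genes. With median scaling 2075 of the 19157 genes were called lower, the number beside which lower counts in that setting stand. None of 16 genes for dopamine receptors and signalling was called on the mean, though 4 were called lower with median scaling (list median -0.17) and 1 with chip as a fixed term, with Drd2 at -0.30 ± 0.10 (SE, adjusted p = 0.1), and 1 was called at a single time. That was Rgs4, a brake on G protein signalling, which at 4 h read 13.51 to 14.01 over the 3 tranylcypromine arrays and 14.34 to 14.50 over the 3 bupropion arrays, with every tranylcypromine array below (difference -0.58, adjusted p = 0.0044), though without tranylcypromine 4 h replicate 1 the Rgs4 difference was -0.42 (adjusted p = 0.28). None of 12 serotonin receptor genes was called on the mean, and Htr1b alone was called at 8 h, at 0.44 (adjusted p = 0.024), which was lost without tranylcypromine 8 h replicate 2 (0.44) or bupropion 8 h replicate 1 (0.41) or 2 (0.46). Of 4 measured adrenergic receptor genes Adra1a was called, with a mean difference of 0.21 (adjusted p = 0.041), and 0.20 without tranylcypromine 1 h replicate 1 (adjusted p = 0.056) or 2 h replicate 2 (adjusted p = 0.073). The Adra1a call was also lost without tranylcypromine 8 h replicate 2 (0.22, adjusted p = 0.065).

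Among 17 neuropeptide and granin genes 3 were called higher and none lower, and all 3 had their largest difference at 8 h. With median scaling 1 was called, and with chip as a fixed term 5. Cartpt, the CART peptide precursor known to respond to psychostimulants in the striatum, differed by 0.05, 0.09, 0.56 and 0.86 at the 4 times. At 8 h it read 12.39, 12.44 and 12.07 against 11.48, 11.52 and 11.30, with no overlap (adjusted p = 6.1e-05). Scg2, a granin of secretory vesicles, differed by 0.91 at 8 h and Vgf, a neurotrophin-inducible precursor, by 0.90. Pdyn, the dynorphin precursor of neurons that bear the dopamine receptor DRD1, was called at 8 h alone, at 0.50 (adjusted p = 0.018). The 8 h calls of Pdyn (0.44, adjusted p = 0.24) and Vgf (0.70, adjusted p = 0.48) were lost without tranylcypromine 8 h replicate 2, and those of Cartpt and Scg2 were kept.

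**Figure D4:**
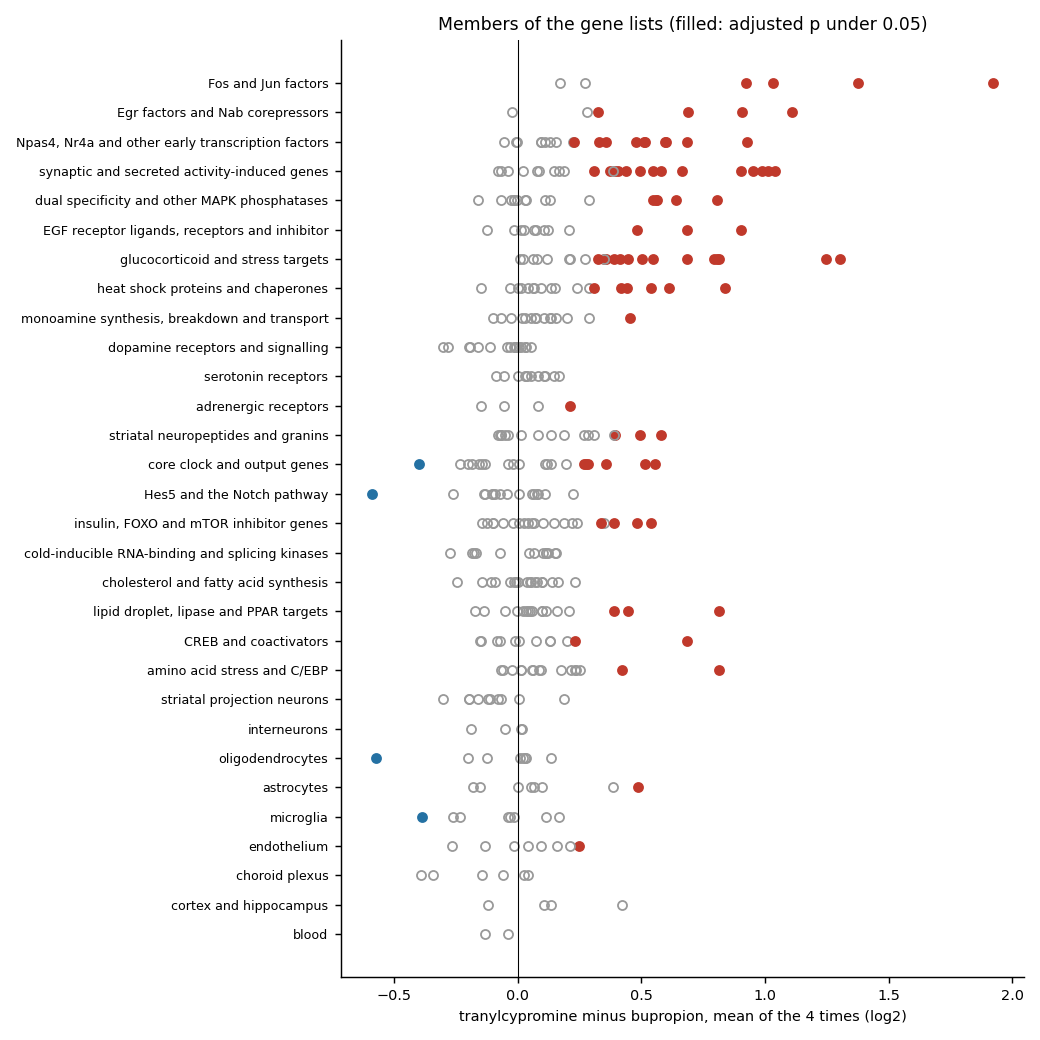
Mean difference over the 4 times (tranylcypromine minus bupropion, log2) of every measured member of the gene lists, 1 line a list, filled points marking called genes. The Fos and Jun, synaptic and glucocorticoid lists lie mostly to the right of 0, and the monoamine, dopamine and cell type lists lie around 0 with few filled points.

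The genes lower after tranylcypromine were fewer and closer to the spread between arrays. Hes5, a Notch target that holds progenitor cells and astrocytes in their state, had the lowest mean difference of the named genes, -0.59 ± 0.10 (SE, adjusted p = 1.2e-05). It read 9.44, 9.70 and 9.48 against 9.81, 10.30 and 10.01 at 1 h and 9.09, 8.78 and 9.64 against 9.99, 10.51 and 9.94 at 8 h. The tranylcypromine arrays were below the bupropion arrays at 3 of the 4 times, and both probes of Hes5 were called on the mean. Its 8 h difference of -0.98 (adjusted p = 0.001) was -0.78 without tranylcypromine 8 h replicate 2 (adjusted p = 0.095). Against the shared saline arrays Hes5 stood at -0.78 after tranylcypromine (adjusted p = 2.5e-09) and -0.19 after bupropion (adjusted p = 0.64). Of the other 15 measured genes of the Notch list none was called on the mean. With position in the model no gene of that list, Hes5 included, was called lower on the mean or at 8 h. There 1 gene of the list was called higher on the mean.

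Opalin, a membrane protein of oligodendrocytes, was lower at 8 h in particular. There it read 10.84, 10.25 and 10.93 after tranylcypromine and 12.03, 11.88 and 12.75 after bupropion, a difference of -1.55 (adjusted p = 5.3e-07), with saline at 12.02, 11.88 and 11.98. At 1 h and 2 h the differences were -0.27 and 0.05, and the change with time was called (adjusted p = 0.0082). The 8 h difference of Opalin was -1.33 without tranylcypromine 8 h replicate 2 and still called, and its change with time was not (adjusted p = 0.14). Of 8 measured oligodendrocyte markers Opalin was the only one called, on the mean and at 8 h, and the list's median was 0.02 on the mean and -0.145 at 8 h. With median scaling 3 of the 8 were lower on the mean (2075 of all 19157 genes were), and with position in the model 2 (583 of all genes were). The log2 of its summed signal ran from 17.08 to 17.50 after tranylcypromine and from 17.23 to 17.40 after bupropion. In bulk tissue, fewer cells of a type and less RNA per cell cannot be told apart.

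Other genes lower at 8 h were Cirbp, Prrt4 and Ppp1r14a. Cirbp, a cold-inducible RNA-binding protein, read 10.79, 10.34 and 10.63 against 11.50, 11.45 and 11.90, a difference of -1.03 (adjusted p = 0.00033), where the 3 earlier differences were 0.03, 0.32 and -0.06. It was -0.91 without tranylcypromine 8 h replicate 2 and was still called, as was Prrt4 at -0.87. Ppp1r14a, an inhibitor of myosin phosphatase, was at -1.04 with that array and at -0.87, no longer called, without it. The gene's other probe was at -0.86 at 8 h with that array included (adjusted p = 5.3e-07). The other 12 measured genes of the cold-inducible and splicing kinase list were not called at any time.

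At 4 h, Cldn5, the tight junction protein of brain endothelium, read 10.70, 10.38 and 11.02 against 11.70, 11.67 and 11.78 (difference -1.01, adjusted p = 0.036), and the 3 tranylcypromine arrays were all lower. Its differences at 1 h and 8 h were 0.08 and 0.16. P2ry13, a purinergic receptor of microglia, read 9.60, 9.38 and 9.43 against 10.23, 10.09 and 10.33 (difference -0.74, adjusted p = 0.004), and Cx3cr1, the microglial fractalkine receptor, was lower on the mean at -0.39 (adjusted p = 0.017). The other 7 of the 8 listed microglial markers were not called, and the log2 of the list's summed signal ran from 13.24 to 13.66 after tranylcypromine and from 13.38 to 13.60 after bupropion, a difference whose part in these results was not tested. Osbp2 (-0.58), Rgs4 and Usf1 (-0.48) were also lower at 4 h. The other probes of Usf1 lay from -0.06 to 0.02 at 4 h. Each of the following calls was lost when 1 array was left out: Cldn5 was at -0.85 without tranylcypromine 4 h replicate 2 (adjusted p = 0.4), P2ry13 at -0.69 and Usf1 at -0.45 without bupropion 4 h replicate 3 (adjusted p = 0.07 and 0.11), Osbp2 at -0.44 without bupropion 4 h replicate 1 (adjusted p = 0.41) and Cx3cr1 at -0.32 without tranylcypromine 8 h replicate 2 (adjusted p = 0.088).

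Of the 153 genes lower on the mean, 138 lay below saline after tranylcypromine and above it after bupropion, and for 127 of these neither shift was called. The median shift over the 153 genes was -0.16 after tranylcypromine and 0.11 after bupropion. Of the 359 higher genes, 229 lay above saline after tranylcypromine and below it after bupropion, and for 155 of these neither shift was called. The median shift over the 359 genes was 0.29 after tranylcypromine and -0.04 after bupropion. 1110038F14Rik differed by -0.52 (adjusted p = 0.0053), with -0.15 after tranylcypromine and 0.38 after bupropion against the shared saline arrays. Pheta1 differed by -0.51, with -0.20 and 0.32, and Ccdc107 by -0.47, with -0.15 and 0.32. With chip and position in the model the differences of Pheta1 and Ccdc107 were 0.16 each and were not called. Tkt, Tuba3a, Agap2, Padi2 and 2310022B05Rik showed the same split. None of these genes was called at a single time. On the mean Tkt and Tuba3a were each called on 1 of 4 probes and Padi2 on 2 of 4. Agap2, Ccdc107 and 1110038F14Rik were each called on 1 of 2 probes. Without tranylcypromine 8 h replicate 2 the calls of Padi2 (-0.41), Tuba3a (-0.39), Tkt (-0.38), Ccdc107 (-0.43) and 2310022B05Rik (-0.46) were lost. The call of Ccdc107 was also lost without tranylcypromine 2 h replicate 3 (-0.39). That of 2310022B05Rik was also lost without bupropion 1 h replicate 1 (-0.41). Both Padi2 (-0.40) and 2310022B05Rik (-0.44) lost theirs without tranylcypromine 4 h replicate 2 as well.

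Over all genes the contrasts with saline, which share their 12 saline arrays, stood apart in the number of called genes and less so in unadjusted p. Tranylcypromine against saline gave 284 genes higher and 68 lower on the mean by limma, with 2513 genes at an unadjusted p under 0.05. Bupropion against saline gave 0 by limma, with 1925 genes at an unadjusted p under 0.05. Bupropion values of the leading genes lay from 0.02 to 0.45 above saline for Junb, Sgk1, Egr2, Inhba, Fosl2, Cdkn1a and Egr4, none of them called. Nptx2 (-0.32) and Hspa1a (-0.24) lay below saline after bupropion, also not called, and tranylcypromine minus saline was not called for Nptx2 (0.72, adjusted p = 0.12) or Hspa1a (0.60, adjusted p = 0.23).

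Few markers of other cells were called between the drugs, as few were among all genes (1.87% higher and 0.799% lower on the mean). On the mean, none of 6 choroid plexus markers, 4 interneuron markers, 4 cortical and hippocampal markers or 2 blood markers was called. With median scaling 3 of 10 projection neuron, 3 of 8 microglial, 1 of 6 choroid plexus and 1 of 2 blood markers were lower, and with position in the model 2 of 8 endothelial markers were higher. Over all 19157 genes median scaling called 618 higher and 2075 lower, and position in the model 594 and 583. The choroid plexus sum ran from 12.41 to 15.92 on the tranylcypromine arrays and from 12.52 to 16.04 on the bupropion arrays, with the most abundant of its genes, Ttr, varying widely within both drugs. Among 8 astrocyte markers Gjb6, a connexin, was called higher at 0.49 (adjusted p = 0.00016), and among 8 endothelial markers Pecam1 was, at 0.25 (adjusted p = 0.028), and 0.21 without bupropion 4 h replicate 3 (adjusted p = 0.083). On 1 tranylcypromine array at 1 h Slc6a3 read 9.98, above the 7.89 to 8.29 of the bupropion arrays, and its part in the other results was not tested.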

How the data were processed

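The deposited table holds log2 probe signals that the authors exported from BeadStudio without normalization. It has 45281 probes on 156 arrays, and 2 probes with missing values were left out. Columns were matched to arrays by sample name. Signals were quantile normalized over all arrays in R 4.3.3, and group means of drug and time were fitted with limma 3.58.1, with an intensity trend, over the 108 arrays of the first chip set, which share 1 estimate of the spread and include saline. Contrasts were tranylcypromine minus bupropion at each time and averaged, and a moderated F test asked whether the difference changed with time. Array precision is limited by 3 arrays a group. By the study's methods its own pipeline subtracted background ahead of quantile normalization and the log2 step, and whether the non-normalized table used here was background-subtracted is not given in the sources used here.

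Of the probes, 34883 carried 1 symbol, 18 several and 10378 none, and 201 with none took the name in the study's list of drug-responsive probes, which was used for names only. Genes were read from the probe with the highest mean signal. Named were the 15 largest positive and 10 largest negative called mean differences, the 5 largest in each direction at each time, list members (called ones with the largest mean difference first) and Fos and Areg. The members and the gene lists were chosen with earlier results of these data known. Replicate numbers did not pair the samples: deviations from the group means of same-numbered tranylcypromine and bupropion arrays correlated at a median of -0.15 (range -0.31 to 0.24). Alternatives covered scaling, the authors' normalized log2 table, chip, position, replicate block, the arrays in the fit, the trend, a filter on dim probes, the methods' t-test and leaving out each array. The tests were checked on simulated data. Promoter sequences are those of RefSeq for GRCm38.p6.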

Additional observations from a re-analysis of the deposited data

Results flagged for a closer look

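For 10 of the genes the difference between tranylcypromine and bupropion was not the same at 1, 2, 4 and 8 h, by limma's moderated F test with adjustment over all probes. The adjusted p was 1.8e-05 for Cdkn1a, 0.026 for Sgk1, 0.019 for Egr2 and 0.0019 for Inhba, whose differences were largest at 4 h or, for Inhba, equal at 4 h and 8 h. For Areg it was 0.00045, with the largest difference at 2 h. It was 0.019 for Hspa1a, where 1 array at 8 h carried the value, and 0.015 for Plin4, which was called at 4 h and 8 h and not at 1 h or 2 h. Of the genes lower after tranylcypromine at 8 h it was 0.019 for Cirbp, 0.028 for Prrt4 and 0.0082 for Opalin. Without tranylcypromine 8 h replicate 2 the adjusted p of the change with time was 0.19 for Hspa1a, 0.19 for Cirbp, 0.22 for Prrt4, 0.14 for Opalin and 0.05 for Egr2, and it was 0.019 for Sgk1, 1.7e-05 for Cdkn1a, 0.00048 for Inhba, 2.5e-08 for Areg and 0.014 for Plin4.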

How the results depend on the processing

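In the main analysis 808 probes were called on the mean of the times, 13, 20, 161 and 346 at 1, 2, 4 and 8 h, and 69 for change with time. The authors' normalized table, the fit without trend and the robust fit kept all 6 counts within 1.5 times, as did the filter on dim probes. In the same order the counts were 5180 (1711 higher, 3469 lower), 4, 3, 49, 50 and 8 with median scaling, 518, 4, 6, 79, 109 and 2 with quantile normalization over the 24 arrays, 513, 3, 7, 79, 109 and 2 with only those arrays fitted, 396, 8, 13, 108, 160 and 37 with all arrays in the spread, and 517, 2, 1, 43, 242 and 5 on the higher-numbered chips. They were 459, 5, 29, 172, 329 and 72 with chip as a fixed term (79.7% of those on the mean higher), 639, 18, 36, 208, 507 and 110 with chip as a random one, 2412, 116, 313, 530, 546 and 74 with position (44.8% higher), and 6, 0, 1, 7, 8 and 63 with chip and position. With replicate number as a block they were 786, 12, 23, 155, 344 and 67, and the block changed no count by over 1.5 times; of the named genes Npas2 alone lost its call (0.27, adjusted p = 0.051). The methods' t-test called 2337, 3097, 3034 and 2927 probes at 1, 2, 4 and 8 h at an unadjusted p under 0.05, and 0, 0, 0 and 1 after Benjamini-Hochberg. Causes were not tested.

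Leaving out 1 array gave 417 (without tranylcypromine 8 h replicate 2) to 1238 (without tranylcypromine 1 h replicate 1) on the mean, and 475 to 521 without tranylcypromine 1 h replicate 2 or 3, 2 h replicate 3 or 4 h replicate 2. It gave 4 (without tranylcypromine 1 h replicate 3) to 10 at 1 h, 8 (without bupropion 2 h replicate 1 or tranylcypromine 2 h replicate 2) to 19 at 2 h, 83 (without bupropion 4 h replicate 3) to 133 at 4 h, 100 (without tranylcypromine 8 h replicate 2) to 454 at 8 h and 37 (without bupropion 8 h replicate 2) to 92 for change with time. Direction turned, uncalled, with position in the model for Irs2 (-0.28), Dusp14 (-0.16), Angptl4 (-0.0893), Arrdc2 (-0.21), Dnajb5 (-0.0022) and Sik1 (-0.10), and with chip and position for Ccdc107 (0.16), Pheta1 (0.16), Tiparp (-0.0493), Rorb (-0.0122), Tsc22d3 (-0.0239), Pde4d (-0.0791) and Klf9 (-0.0581). Tranylcypromine minus saline called 530 probes, 600 with chip and 520 with the replicate block, and bupropion minus saline 0 each time, 2 alternatives chosen after seeing the data.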

Other observations

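Of 20 measured core clock and output genes, 6 were called higher on the mean and 1 lower, with a median of 0.06 against 0.004 over all genes, 3 and 1 without tranylcypromine 8 h replicate 2, 2 and 2 with median scaling (median -0.03), 1 and 0 with position in the model and 3 and 0 with chip as a fixed term. Bhlhe40, a repressor that clocks and early signals share, differed by 0.66, 0.74, 0.58 and 0.25 at 1, 2, 4 and 8 h, and Nfil3, another repressor, by 0.27, 0.37, 0.49 and 0.92. Their arrays did not overlap between the drugs at any time. Dbp, a clock output activator whose target sites Nfil3 also binds, was the lower one, and at 8 h it read 13.66, 12.86 and 13.87 after tranylcypromine against 14.04, 14.20 and 14.40 after bupropion (adjusted p = 0.019). Without tranylcypromine 8 h replicate 2, the lowest of these, the Dbp difference at 8 h was -0.45 and not called (adjusted p = 0.6).

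Metabolic genes with late differences included Angptl4, an inhibitor of lipoprotein lipase, at -0.25, 0.01, 0.86 and 1.17 over the 4 times, and Depp1, a FOXO target, at -0.15, 0.17, 1.16 and 0.75. Without tranylcypromine 8 h replicate 2 the 8 h call of Angptl4 was kept (0.99) and that of Depp1 was lost (0.51, adjusted p = 0.56). Of 17 lipid droplet, lipase and PPAR target genes 3 were called higher and none lower, and of 21 insulin, FOXO and mTOR inhibitor genes 4 were, among them Irs2 (0.54), an adaptor of the insulin receptor. With position in the model the first list had 0 higher and 2 lower and the second 1 higher, and with median scaling they had 1 and 1, and 2 and 3. None of 18 genes of cholesterol and fatty acid synthesis was called on the mean, and 1 higher and 2 lower with median scaling. In the list for amino acid stress and C/EBP factors 2 of 16 were called, Cebpb (0.81), whose arrays did not overlap between the drugs at any time, and Chac1 (0.42), a glutathione-degrading enzyme of the ATF4 pathway.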
